A study of Mus musculus with 20 samples.

Results

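The genes of the integrin subunits and laminin chains were examined in RNA of whole plantaris muscle from old mice. Members were the rows of the count matrix whose gene name is that of an integrin α subunit, an integrin β subunit, Itgbl1 or a laminin α, β or γ chain, and they made 38 of 22660 rows: 26 integrin subunits, Itgbl1 and 11 laminin chains. The 20 mice, labelled as 2 years old and, per the study's methods, male C57BL/6J, formed 4 groups of 5 different animals. Mechanical overload (MOV) was produced in both hindlimbs by cutting away part of the gastrocnemius and soleus, the muscles that share work with the plantaris, and sham mice had the skin opened and no muscle removed. Both surgeries were followed by gavage of vehicle or of D + Q, in which dasatinib (5 mg/kg) inhibits tyrosine kinases and quercetin (50 mg/kg) is a flavonoid of plants. Mice are named by treatment and surgery, so that vehicle sham stands beside vehicle MOV and D + Q sham beside D + Q MOV. Gavage was given on days 7 and 10 and muscle was collected on day 14, although the series' own description puts the second gavage of sham mice on day 14. RNA came from the whole muscle, so fewer cells of a type and less RNA per cell cannot be told apart in any result below.

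Integrins are receptors of an α and a β subunit that span the cell membrane and fasten the cytoskeleton to the extracellular matrix or to other cells. Laminins are cross-shaped trimers of an α, a β and a γ chain that polymerise into the basement membrane around each muscle fibre, nerve and capillary. In adult muscle the fibre is held to laminin by the integrin of Itga7 with Itgb1 and by dystroglycan, and loss of Lama2 or Itga7 causes muscular dystrophy. Itgbl1 encodes a secreted protein with repeats like those of integrin β subunits, which pairs with no α subunit.

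The libraries held 17887532 to 26234518 counts per mouse. All 9 myofibre markers were present, and they summed to 162521 to 181924 counts per 1000000 counts (CPM) in vehicle sham mice and 90053 to 128804 CPM in vehicle MOV mice. Epithelial keratins and other epithelial markers summed to 3.57, 0.156, 8.9, 3.5 and 0.253 CPM in vehicle MOV replicates 1 to 5 and to 0.535 CPM or less in every other mouse. Vehicle MOV replicates 2 and 4 correlated least with their own group, at a mean r across genes of 0.9747 and 0.9746, against 0.979 to 0.984 in the other mice. Values in CPM are relative to library totals scaled by edgeR's TMM factors. With total counts alone as the scale, the median log2 fold change of all genes between MOV and sham moved from -0.02 to 0.36 with vehicle and from 0.02 to 0.39 with D + Q, so directions of small changes depend on this choice.

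The promoters of 4 members are shown because the results below turn on these genes: Itgbl1, which had the largest change after overload, Itga11, a collagen receptor subunit, Lamb1, which was called in D + Q sham muscle, and Itgam, a leukocyte subunit. The genes lie, in the GRCm39 annotation, at chr14:123897383-124215765, chr9:62585108-62691617, chr12:31315030-31379658 and chr7:127661808-127717753, all on the plus strand and all protein coding. Itgbl1 overlaps Fgf14 and Lamb1 overlaps Dld, each on the other strand, and Itgam overlaps Gm49368 on its own strand, so reads from the overlaps cannot be assigned with certainty. Each sequence runs 5′ to 3′ on the plus strand from 250 bases before to 50 bases after the RefSeq start in build GRCm38.p6, at chr14:123659890-123660189 for Itgbl1, chr9:62677605-62677904 for Itga11, chr12:31265043-31265342 for Lamb1 and chr7:128062390-128062689 for Itgam. Capitals mark matches, on either strand, to GAGGAA, the purine-rich core of ETS factor sites, and to GGGCGG, the GC box.
Itgbl1: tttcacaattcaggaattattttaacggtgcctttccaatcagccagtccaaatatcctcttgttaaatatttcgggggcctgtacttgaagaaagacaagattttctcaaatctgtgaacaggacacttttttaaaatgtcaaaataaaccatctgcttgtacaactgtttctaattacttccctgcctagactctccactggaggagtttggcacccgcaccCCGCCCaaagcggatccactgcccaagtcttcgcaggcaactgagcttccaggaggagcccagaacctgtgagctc
Itga11: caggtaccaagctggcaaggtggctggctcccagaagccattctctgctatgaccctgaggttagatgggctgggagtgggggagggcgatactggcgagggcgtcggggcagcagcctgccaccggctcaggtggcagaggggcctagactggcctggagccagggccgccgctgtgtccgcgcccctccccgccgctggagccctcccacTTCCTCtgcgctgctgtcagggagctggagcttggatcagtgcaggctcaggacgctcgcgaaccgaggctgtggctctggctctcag
Lamb1: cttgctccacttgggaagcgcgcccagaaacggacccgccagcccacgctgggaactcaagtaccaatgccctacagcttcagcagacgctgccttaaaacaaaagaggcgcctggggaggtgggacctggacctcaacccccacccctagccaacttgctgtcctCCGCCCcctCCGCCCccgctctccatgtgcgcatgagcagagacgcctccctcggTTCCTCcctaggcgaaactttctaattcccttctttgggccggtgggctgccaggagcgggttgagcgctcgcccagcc
Itgam: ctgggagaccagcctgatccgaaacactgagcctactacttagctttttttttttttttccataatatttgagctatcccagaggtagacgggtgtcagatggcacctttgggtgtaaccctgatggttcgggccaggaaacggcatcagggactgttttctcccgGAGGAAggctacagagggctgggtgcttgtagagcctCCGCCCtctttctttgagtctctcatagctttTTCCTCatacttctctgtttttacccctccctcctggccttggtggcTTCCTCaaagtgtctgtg

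The Itgam promoter held 3 matches to GAGGAA and 1 to GGGCGG, that of Lamb1 held 1 and 2, that of Itga11 held 1 match to GAGGAA, and that of Itgbl1 held 1 match to GGGCGG. RefSeq promoters were found for 24 of the 38 members. Some genes have several promoters, and a gene was counted when any of them held the motif. GAGGAA occurred for 14 of the members and for 31.3% of all 27025 genes in the table, and GGGCGG for 12 and for 38.2%. TATAAA, the TATA box, occurred for none of the 24 members and for 15.7% of all genes, and CATTCC, the core of TEAD factor sites, for 3 (Itga10, Itgb1 and Lamb3) and for 16.6%. None of the 4 motifs contains another, and a match describes the sequence alone.

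Levels were compared between genes as CPM per kilobase of annotated exon, which includes exons of rare isoforms. In vehicle sham muscle the common subunit Itgb1 stood highest at 35.3 ± 4.08 CPM per kilobase (SD, n = 5), and Lamb2, a laminin β chain of the fibre surface and synapse, followed at 22.7 ± 2.52. Itgb5, the β partner of Itgav, was at 15.8 ± 1.5 and Itga7 at 14 ± 1.51, and the ranges of these neighbours overlapped. Lamc1, the γ chain of most laminins, was at 8.34 ± 0.875, Itgb6 at 5.17 ± 0.715 and Lama5 at 4.99 ± 0.446, and again Itgb6 and Lama5 did not differ beyond their spread. Itgb6, known best from epithelia, was thus among the higher members in muscle in which epithelial markers were at 0.53 CPM or less. In vehicle MOV muscle Itgb1, at 65.3 ± 7.58 CPM per kilobase, and Lamb2, at 26.5 ± 2.72, kept the first 2 ranks, and Itga5, at 9.29 ± 1.3, and Lamb1, at 8.03 ± 1.96, stood in ranks 6 and 7.

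**Figure D1:**
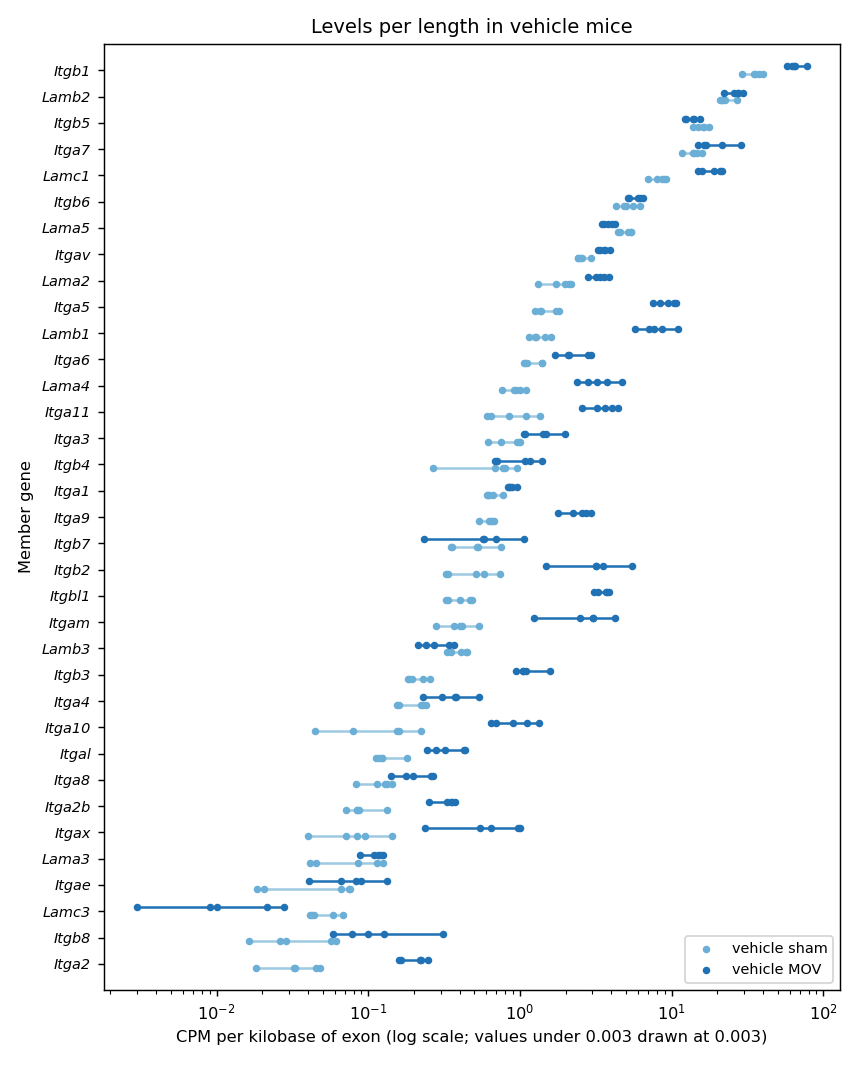
Levels of 35 members in each vehicle mouse (points, n = 5 a group) as CPM per kilobase of exon on a log axis, with a line from the lowest to the highest mouse. Itgb1 and Lamb2 lead in both groups, and members such as Itga5, Lamb1 and Itgbl1 have MOV mice wholly to the right of sham mice, and Itgad and Lama1 are among those left out, for their near-zero counts.

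The first question was how the receptors and their laminins differ between overloaded and sham plantaris. Itga2, at under 10 counts in every sham mouse, passed the count filter through its MOV mice alone, so the counts that follow leave it out. With vehicle, 26 of the other 33 members tested were higher in MOV and 2 were lower by edgeR's quasi-likelihood test at an adjusted p under 0.05, where 30.7% of all 14601 genes tested were called higher and 29.8% lower. With D + Q, 28 of 34 were higher and 3 lower, against 34.4% and 30.9% of 14913 genes. These 2 comparisons used different mice, and 26 members were higher and 2 lower in both. A log2 fold change of at least 1 was found for 16 members with vehicle and 19 with D + Q, against 18.1% and 19.4% of all genes, and 16 were common to both. The median log2 fold change of these members was 0.96 with vehicle and 1.18 with D + Q, against -0.02 and 0.02 for all genes tested. With vehicle the MOV and sham mice did not overlap for 21 members that were higher and 1 that was lower, against 23.6% and 22.9% of all genes, and with D + Q for 22 and 3, against 26.2% and 27% of all genes. Itgad and Lama1 (at most 11 counts in any mouse) and Itgae (at most 20) were tested in neither. Lama1 had no count in any vehicle sham mouse and 6 to 9 counts in each vehicle MOV mouse. Some mice of the lower group also had under 10 counts of Itga10, Itgax, Itgb8 and Lama3 with vehicle. With D + Q this held for Itgax, Itgb8, Lama3 and Lamc3. These members stay in the counts above, although the filter favoured the direction they showed.

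**Figure D2:**
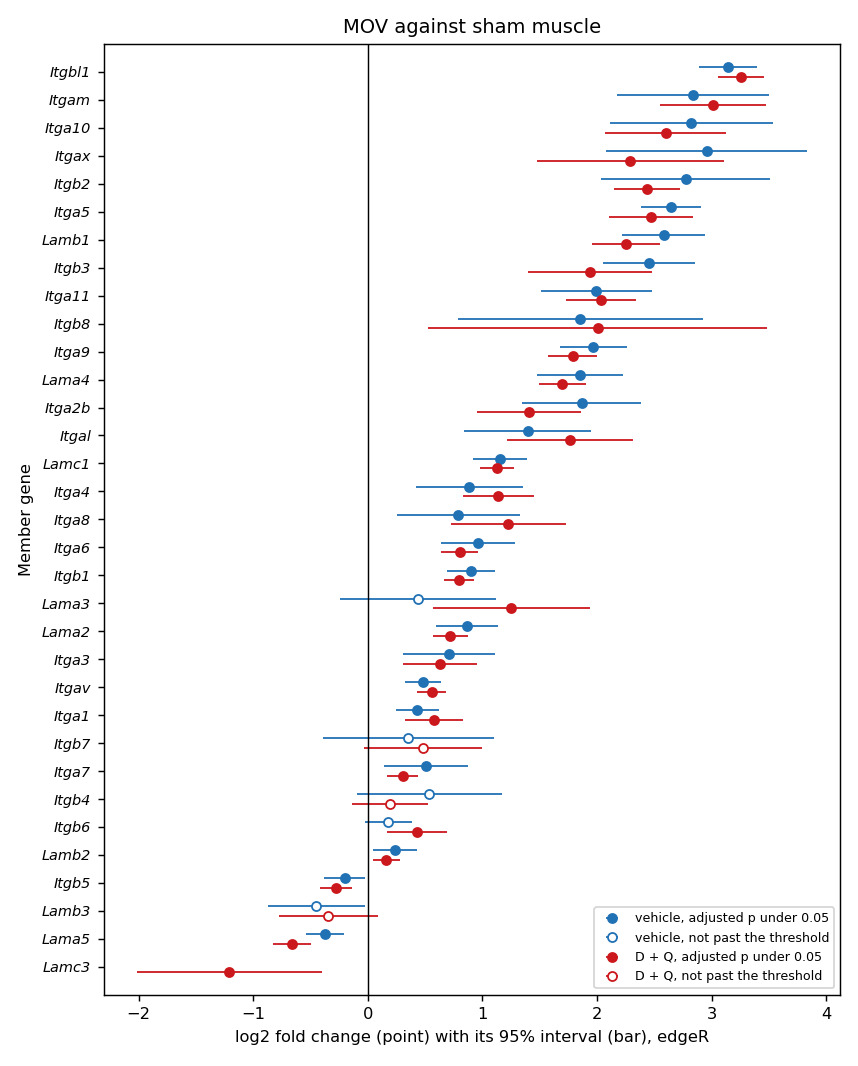
Log2 fold change of tested members between MOV and sham muscle (horizontal axis, points) with 95% intervals (bars), with vehicle in blue and D + Q in red, filled where the adjusted p was under 0.05. Itga2 is not drawn. Most members lie right of 0 in both treatments, Itgbl1 furthest at 3.14 and 3.26; Itgb5 and, with vehicle, Lama5 lie left of 0 here and right of it with total counts as the scale.

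Of the 4 collagen-binding α subunits, Itga1, Itga10 and Itga11 were higher in MOV in both treatments. Itga11, a receptor for fibrillar collagen typical of fibroblasts, read 3.96, 6.73, 3.74, 8.38 and 5.24 CPM in vehicle sham mice and 22.5, 15.9, 25, 27.3 and 19.7 CPM in vehicle MOV mice. In D + Q mice it read 7.03, 7.24, 10.1, 6.7 and 10.8 CPM after sham surgery and 37.3, 25.9, 34.6, 34 and 34.9 CPM after MOV. Every MOV mouse stood above every sham mouse, and the log2 fold change was 1.99 ± 0.22 (SE, adjusted p = 9.05e-06) with vehicle and 2.03 ± 0.14 (adjusted p = 2.09e-08) with D + Q. Itga10, whose protein binds collagen in cartilage and mesenchymal cells, read 0.828, 0.805, 1.16, 0.233 and 0.412 CPM in vehicle sham and 3.61, 6.95, 5.79, 3.37 and 4.64 CPM in vehicle MOV, and 0.945, 0.609, 0.536, 1.41 and 0.713 and 5.82, 4.85, 5.68, 3.21 and 5.4 CPM in the D + Q groups. It also did not overlap between the surgeries, with log2 fold changes of 2.82 ± 0.33 and 2.60 ± 0.25. Its reads may be shared with Gm42957, which overlaps it on the same strand.
Itga2, known from platelets and epithelia, was near the lower limit of counting, at 2 to 8 counts in sham mice. It read 0.322, 0.345, 0.129, 0.233 and 0.235 CPM in vehicle sham and 1.56, 1.14, 1.6, 1.18 and 1.77 CPM in vehicle MOV, and 0.42, 0.365, 0.39, 0.194 and 0.153 and 2.11, 2.29, 2.65, 2.36 and 1.95 CPM with D + Q. Its MOV mice read above its sham mice, which is given with no test because the filter fixed that direction. Itga1, the collagen IV receptor of smooth muscle and capillaries, changed least of the other 3, from between 12.9 and 16.5 CPM to between 17.9 and 20.4 CPM with vehicle, with log2 fold changes of 0.43 and 0.58. Reads of Itga1 may be shared with Pelo and Gm49395, which overlap it on the same strand.

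The 3 laminin-binding α subunits were all higher in both treatments, with log2 fold changes under 1. Itga7, the main α subunit of the muscle fibre, was at 96.5 to 131 CPM in vehicle sham and at 123 to 239 CPM in vehicle MOV, where replicates 2 and 5 were high at 179 and 239 CPM and the groups overlapped. Its log2 fold change was 0.51 ± 0.17 (adjusted p = 0.0201) with vehicle, and 0.35 without vehicle MOV replicate 5. The call with vehicle was lost with a block for the replicate number (0.47, adjusted p = 0.0739 by edgeR). With D + Q it was 0.30 ± 0.06 (adjusted p = 0.000372), a call that did not hold when all 20 mice entered 1 fit. Itga6, found on endothelium and Schwann cells, went from between 12 and 15.8 CPM to between 19.4 and 33.4 CPM (log2 fold changes 0.96 and 0.80), and Itga3, a receptor of many adherent cells, from between 3.57 and 5.84 CPM to between 6.22 and 11.5 CPM (log2 fold changes 0.71 and 0.63).
Within each mouse the make-up of the α subunits differed between the surgeries, a measure that does not depend on the scaling between mice. Itga7 made up 59.2% ± 2.92 (SD, n = 5) of the summed α subunit CPM per kilobase in vehicle sham, 39.8% ± 8.58 in vehicle MOV, 52.8% ± 2.9 in D + Q sham and 30.6% ± 2.46 in D + Q MOV. No MOV mouse reached the share of any sham mouse of its treatment, although the Itga7 level itself was higher after MOV. Itga5 went from 6.35% ± 0.745 to 18.9% ± 2.47 with vehicle and from 8.2% ± 1.57 to 21.1% ± 2.7 with D + Q.

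All 4 subunits that recognise the RGD motif of fibronectin and other ligands were higher in MOV. Itga5, the classical fibronectin receptor, read 7.31, 6.67, 9.6, 9.2 and 7.18 CPM in vehicle sham and 44.4, 40.4, 55.2, 56.4 and 50.7 CPM in vehicle MOV. In D + Q mice it read 9.45, 13, 7.36, 10.1 and 10.5 CPM after sham surgery and 47.4, 54, 53.1, 43.1 and 71.8 CPM after MOV. The lowest MOV mouse was thus above the highest sham mouse in each treatment, with log2 fold changes of 2.64 ± 0.12 (adjusted p = 1.04e-09) and 2.47 ± 0.17 (adjusted p = 1.48e-07). Itgav, which pairs with several β subunits and activates latent TGF-β, went from between 29.7 and 36 CPM to between 40.3 and 48.3 CPM with vehicle, without overlap (log2 fold changes 0.48 and 0.56). Itga8, a nephronectin receptor of smooth muscle and fibroblasts, went from between 0.902 and 1.55 CPM to between 1.52 and 2.87 CPM (0.79 and 1.22), and Itga2b, the platelet fibrinogen receptor, from between 0.582 and 1.1 CPM to between 2.05 and 3.06 CPM (1.86 and 1.41). The 6 platelet and megakaryocyte markers summed to 5.8 to 8.59 CPM in vehicle sham and 8.66 to 26.5 CPM in vehicle MOV, only 2 of them passed the count filter, and their part in the Itga2b result was not tested.
Itga4 and Itga9, which bind fibronectin, VCAM-1 and tenascin, were also higher. Itga9 read 5.15, 5.01, 4.83, 5.18 and 4.18 CPM in vehicle sham and 17.2, 19.9, 21.2, 22.7 and 13.7 CPM in vehicle MOV, and 5.14, 5.78, 5.95, 4.52 and 6.77 and 18.6, 19.2, 18.1, 18.7 and 19.3 CPM in D + Q mice. The groups lay apart, with log2 fold changes of 1.97 ± 0.14 and 1.79 ± 0.10. Itga4, also carried by leukocytes, went from between 2.59 and 4.00 CPM to between 3.84 and 9.05 CPM with vehicle, where the groups overlapped, and from between 3.11 and 4.99 CPM to between 6.92 and 8.8 CPM with D + Q, where they did not (0.89 and 1.14).

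Among the 6 β subunits outside the leukocyte class, Itgb1, Itgb3 and Itgb8 were higher in both treatments. Itgb1 went from between 173 and 238 CPM to between 345 and 465.5 CPM with vehicle and from between 204 and 229 CPM to between 342 and 405 CPM with D + Q (log2 fold changes 0.90 ± 0.10 and 0.80 ± 0.06), with no overlap. Itgb3, the partner of Itgav and Itga2b, read 1.7, 1.21, 1.29, 1.51 and 1.24 CPM in vehicle sham and 6.98, 6.22, 6.97, 10.5 and 7.3 CPM in vehicle MOV, and 2.15, 3.29, 4.00, 1.85 and 1.02 and 9.93, 9.01, 8.41, 10.1 and 8.1 CPM with D + Q. Its MOV mice all stood above its sham mice, with log2 fold changes of 2.45 ± 0.19 and 1.94 ± 0.25. Itgb8, an activator of latent TGF-β, read 0.184, 0.69, 0.322, 0.64 and 0.294 CPM in vehicle sham and 1.12, 0.881, 0.659, 3.5 and 1.44 CPM in vehicle MOV, and 0.682, 0.609, 0.0975, 0.486 and 0.255 and 0.86, 0.344, 3.93, 0.803 and 2.34 CPM with D + Q. Sham mice had few counts of Itgb8, 4 to 12 with vehicle and 2 to 13 with D + Q. Single MOV mice were far above the rest of their group, the groups overlapped, and the log2 fold changes were 1.86 ± 0.50 (adjusted p = 0.00503) and 2.00 ± 0.67 (adjusted p = 0.0204). The second of these no longer passed the threshold without D + Q sham replicate 5 or with a block for the replicate number (1.66, adjusted p = 0.104 by edgeR).
Itgb5 was the only integrin subunit called lower in MOV in either treatment, at -0.20 ± 0.08 (adjusted p = 0.0472) with vehicle, from between 98 and 125 CPM to between 86.5 and 109 CPM, and at -0.28 ± 0.07 (adjusted p = 0.00158) with D + Q, from between 116 and 147 CPM to between 96 and 113 CPM. With total counts as the scale its log2 fold changes were 0.18 and 0.09, and with vehicle the call was also lost in 7 of the fits that left out 1 mouse. Of all alternatives run with vehicle, 7 kept the call, 9 lost it and 1, total counts, reversed its direction. Within the β subunits of each mouse, Itgb5 went from 27.2% ± 0.421 to 15.1% ± 1.92 with vehicle and from 29.6% ± 3.3 to 16.5% ± 1.24 with D + Q, while Itgb1 went from 60.5% ± 2.06 to 71.7% ± 3.66 and from 59.1% ± 1.72 to 69.2% ± 1.73. Itgb6 was called higher with D + Q, at 0.43 ± 0.12, and had 0.18 ± 0.10 with vehicle (adjusted p = 0.124). Itgb4, the hemidesmosome subunit that Schwann cells also carry, passed in neither (0.54 and 0.19, adjusted p = 0.13 and 0.292).

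Of the 7 leukocyte subunits, 5 were tested and 4 of these were higher in both treatments. Itgam, the α subunit of the complement receptor of macrophages and neutrophils, read 1.43, 2.07, 2.13, 2.74 and 1.88 CPM in vehicle sham and 15.5, 6.38, 15.5, 21.8 and 12.7 CPM in vehicle MOV. In D + Q mice it read 1.31, 4.02, 2.73, 1.46 and 2.14 CPM after sham surgery and 16.4, 17, 18.7, 17.9 and 19.9 CPM after MOV. Vehicle MOV replicate 2 was low, though still above all sham mice, and the log2 fold changes were 2.84 ± 0.30 (adjusted p = 7.50e-06) and 3.01 ± 0.21 (adjusted p = 3.15e-08). Itgb2, the β subunit common to the leukocyte integrins, read 1.06, 1.09, 1.68, 2.39 and 1.88 CPM in vehicle sham and 11.4, 4.82, 10.2, 17.7 and 10.2 CPM in vehicle MOV, and 1.99, 3.04, 2.05, 1.94 and 2.55 and 11.3, 11, 13.5, 12.1 and 12.6 CPM with D + Q. It showed the same low replicate, with log2 fold changes of 2.77 ± 0.34 and 2.44 ± 0.14. Itgax, carried by dendritic cells and some macrophages, read 0.46, 0.345, 0.193, 0.699 and 0.412 CPM in vehicle sham and 4.86, 1.14, 2.64, 4.72 and 3.12 CPM in vehicle MOV, and 0.472, 1.34, 0.341, 0.243 and 0.458 and 3.13, 1.45, 3.67, 2.05 and 2.88 CPM with D + Q. D + Q sham replicate 2 came near the lowest MOV mouse, and the log2 fold changes were 2.96 ± 0.41 and 2.29 ± 0.39. Itgax had only 3 to 12 counts in vehicle sham mice and 5 to 22 counts in D + Q sham mice.
Itgal, the α subunit of the lymphocyte integrin that binds ICAM-1, went from between 0.736 and 1.18 CPM to between 1.61 and 2.85 CPM with vehicle (1.39 and, with D + Q, 1.77). Itgb7, the gut-homing β subunit of lymphocytes, had 0.35 ± 0.35 (adjusted p = 0.4) and 0.48 ± 0.25 (adjusted p = 0.0954). The 7 leukocyte subunits together summed to 5.15 to 8.73 CPM in vehicle sham, 5.67 to 12.5 in D + Q sham, 15 to 50.9 in vehicle MOV and 34.6 to 40.7 in D + Q MOV. The 9 macrophage markers moved with them, at 58.9 to 149, 65.4 to 155, 279 to 828.5 and 604 to 721 CPM in the same order, none of them at 0 throughout a group. Vehicle MOV replicate 2 was lowest of its group in both sums, at 15 and 279 CPM, and replicate 4 highest, at 50.9 and 828.5 CPM. Fibroblast and tendon marker sums were also lowest in replicate 2 and highest in replicate 4 of that group. The myofibre sum ran the other way, highest in replicate 2 and lowest in replicate 4. Neutrophil markers (5 of 6 in the matrix) summed to 0.736 to 2.53 CPM in vehicle sham and 3.00 to 7.34 CPM in vehicle MOV. With D + Q they summed to 1.07 to 4.47 and 3.05 to 5.51 CPM. Lymphocyte markers summed to 1.84 to 4.36 and 4.05 to 7.61 CPM with vehicle. With D + Q these were 1.99 to 3.17 and 2.9 to 6.02 CPM. The means of the neutrophil and lymphocyte sums were thus also higher in MOV. Dendritic cell markers overlapped between the surgeries, at 8.51 to 11.9 and 8.71 to 13.2 CPM with vehicle. The part of these cells in the result was not tested. Without vehicle MOV replicate 2 the log2 fold changes with vehicle were 3.05 for Itgam, 2.98 for Itgb2 and 3.19 for Itgax.

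Itgbl1 had the largest log2 fold change of all members in both treatments. It read 4.09, 3.34, 3.42, 4.95 and 4.83 CPM in vehicle sham and 37.9, 31.4, 33.4, 38.5 and 39.3 CPM in vehicle MOV. In D + Q mice it read 4.36, 6.7, 5.8, 5.34 and 5.6 CPM after sham surgery and 55.8, 45.1, 52.5, 53.9 and 49.2 CPM after MOV. The groups were far apart, with log2 fold changes of 3.14 ± 0.12 (95% interval 2.89 to 3.40, adjusted p = 2.49e-10), or 8.82-fold, and 3.26 ± 0.10 (95% interval 3.06 to 3.46, adjusted p = 1.01e-13), or 9.56-fold. The 8 fibroblast markers, which include Col1a1 and Col1a2, were all higher in MOV in both treatments, and their sum was 398 to 584 CPM in vehicle sham, 489 to 861 in D + Q sham, 3665 to 6862 in vehicle MOV and 5935 to 8528 in D + Q MOV. The 6 tendon and myotendinous junction markers summed to 89.9 to 143, 138 to 162, 657 to 1031 and 877 to 1157 CPM. The part of these cells in the changes of Itgbl1, Itga11 and other members was not tested.

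**Figure D3:**
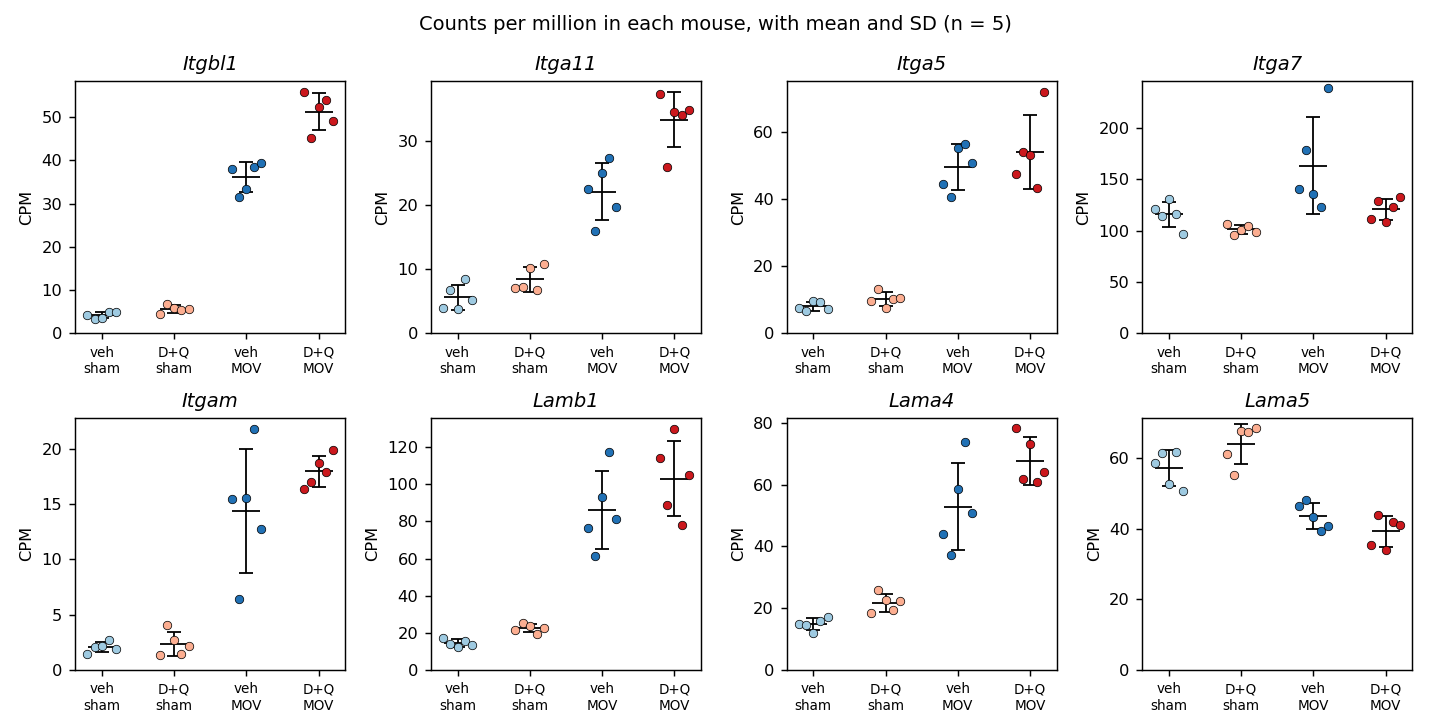
CPM of 8 members in each mouse (points) with the mean and SD of each group (bars, n = 5). Itgbl1, Itga11, Itga5, Itgam, Lamb1 and Lama4 have all MOV mice above all sham mice, Itga7 overlaps between vehicle sham and vehicle MOV, and Lama5 is lower in MOV on this TMM scale, which with vehicle does not hold with total counts as the scale.

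The laminin chains did not move as a block. Lamb1, the β chain of embryonic and vascular laminins, read 17.3, 13.8, 12.2, 15.6 and 13.5 CPM in vehicle sham and 76.4, 61.6, 93.3, 118 and 81.5 CPM in vehicle MOV. In D + Q mice it read 21.3, 25.3, 23.8, 19.4 and 22.3 CPM after sham surgery and 114, 89.1, 130.1, 77.9 and 105 CPM after MOV. Its MOV mice were all far above its sham mice, with log2 fold changes of 2.58 ± 0.17 (adjusted p = 1.26e-07) and 2.25 ± 0.13 (adjusted p = 2.69e-08). Lama4, the α chain of capillary and mesenchymal basement membranes, read 14.7, 14.4, 12.1, 15.8 and 17.1 CPM in vehicle sham and 44, 37.3, 58.7, 73.9 and 50.9 CPM in vehicle MOV, and 18.3, 25.8, 22.6, 19.3 and 22.2 and 78.5, 61.9, 73.4, 61.1 and 64.3 CPM with D + Q. The surgeries did not overlap, and the log2 fold changes were 1.85 ± 0.17 (adjusted p = 2.42e-06) and 1.70 ± 0.10 (adjusted p = 4.91e-10). Lama2, the α chain of the adult fibre, went from between 23.5 and 38.7 CPM to between 49.9 and 69 CPM with vehicle (0.87 and, with D + Q, 0.72), and Lamc1 from between 78.9 and 104 CPM to between 169 and 243 CPM (1.15 and 1.13).
Lamb2 was called higher by a small margin, with log2 fold changes of 0.24 and 0.16 and overlapping groups, and the call was lost in 5 fits that left out 1 vehicle mouse and, with D + Q, when all 20 mice entered 1 fit. Lama5, the broadly used α chain of adult vessels and nerves, was lower, from between 50.7 and 61.8 CPM to between 39.5 and 48.3 CPM with vehicle (-0.37 ± 0.08, adjusted p = 0.000781) and from between 55.2 and 68.5 CPM to between 34.1 and 43.8 CPM with D + Q (-0.66 ± 0.08, adjusted p = 9.26e-07). With total counts as the scale its log2 fold change with vehicle was 0.001 and with D + Q -0.30. Lamc3, a γ chain of nerve and retina, was called lower with D + Q (-1.21 ± 0.38, a call lost with total counts as the scale), at 11 to 18.6 counts in sham and 4 to 14.9 counts in MOV mice, and was too low to test with vehicle. The D + Q sham mice alone met the count filter for Lamc3, which favoured the lower direction. Lama3 and Lamb3, chains of epithelial laminin, stood at most at 1.75 and 4.57 CPM. Lama3 was called higher with D + Q (1.25 ± 0.32) and had 0.44 ± 0.32 with vehicle (adjusted p = 0.247), and Lamb3 had -0.45 and -0.35 (adjusted p = 0.0642 and 0.15). The Lama3 groups overlapped in both treatments. Lama3 averaged 1.43 CPM in vehicle MOV and 1.44 CPM in D + Q MOV, against 1.06 CPM in vehicle sham and 0.62 CPM in D + Q sham.

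Within each mouse the mix of laminin chains, which no scale between mice can alter, also differed between the surgeries. Shares are given as a description, with no test. Lama5 made up 62.9, 69.5, 60.4, 63.1 and 60.7% of the summed laminin α CPM per kilobase in the vehicle sham mice and 41.4, 40.8, 34.4, 28.3 and 35.3% in the vehicle MOV mice. In D + Q mice it made up 61.3% ± 3.81 (SD, n = 5) after sham surgery and 30.6% ± 3.57 after MOV. By this measure Lama5 was the largest α chain in every sham mouse, and in D + Q MOV mice Lama4 had the largest mean share. The order of chains depends on the annotated exon lengths, which include exons of rare isoforms. They were 17831 bases for Lama2, 15715 for Lama4 and 11448 for Lama5. Lama4 went from 12% ± 1.78 to 31.2% ± 5.84 with vehicle and from 15.1% ± 2.11 to 38.5% ± 4.02 with D + Q, and Lama2 from 23.6% ± 4.13 to 31.4% ± 2.21 and from 23% ± 1.97 to 29.7% ± 1.63. Lamb1 went from 5.57% ± 0.895 to 23% ± 3.96 of the β chains with vehicle and from 7.49% ± 0.701 to 25.6% ± 4.28 with D + Q, and Lamb2 from 92.8% ± 0.929 to 76.2% ± 4.08 and from 91% ± 0.767 to 73.5% ± 4.37. Lamc1 remained by far the main γ chain, at a mean of 95.7% to 95.9% in the 4 groups. Endothelial markers, 9 genes, summed to 165 to 226 CPM in vehicle sham and 278 to 307 CPM in vehicle MOV, and their part in these shares was not tested.

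**Figure D4:**
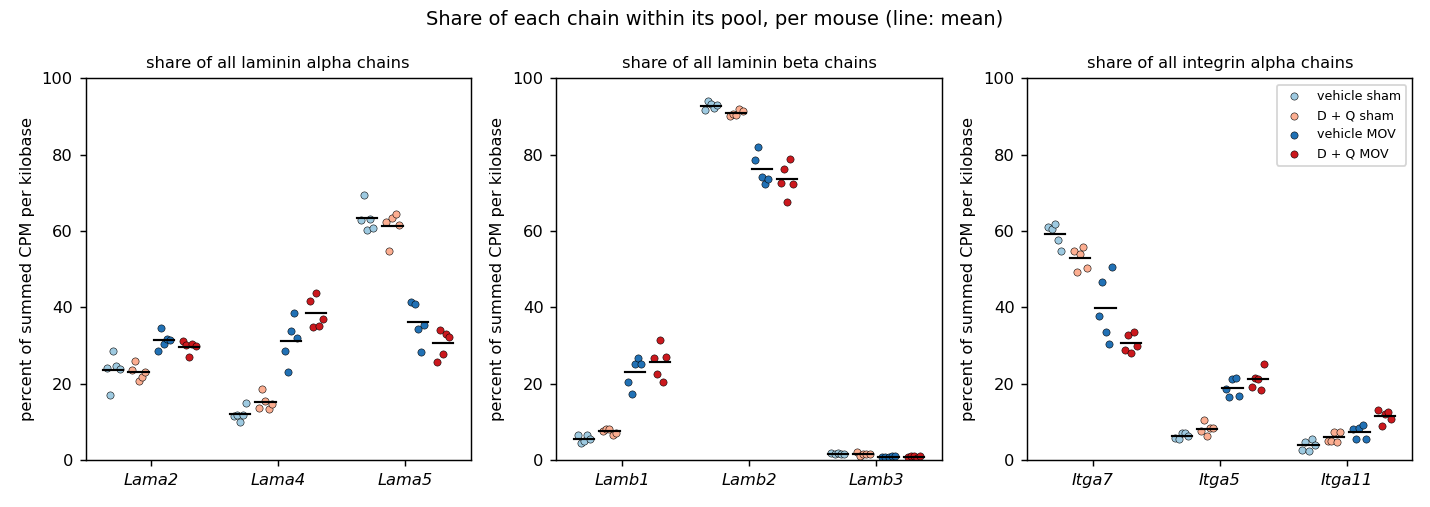
Share of single chains in the summed CPM per kilobase of their class, in percent (vertical axis), in each mouse (points) of the 4 groups, with the group mean (line). Lama5 and Lamb2 take smaller shares and Lama4 and Lamb1 larger ones in MOV than in sham mice, and Itga7 has a smaller and Itga5 a larger share of the integrin α subunits.

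The members' partners were read from lists of genes whose products bind them or act beside them. Their counts stand against the same shares of all genes as those of the members: 30.7% higher and 29.8% lower with vehicle, and 34.4% and 30.9% with D + Q. Of 18 genes tested in a list of soluble and matrix ligands, 16 were higher in MOV in each treatment and 1 was lower with vehicle (Tgfb2, -0.31). Thbs2, a matricellular protein that regulates collagen fibrils, had log2 fold changes of 4.56 with vehicle and 4.47 with D + Q, Tgfb1, which Itgav integrins activate, 2.05 and 2.19, and Vcam1, the ligand of Itga4 and Itga9, 2.02 and 2.20. Of 18 basement membrane partners of laminin, 14 were higher in each treatment, among them Sparc, a collagen chaperone (3.74 and 3.62), Col4a2 of the collagen IV network (1.89 and 1.53) and Col18a1 (2.78 and 2.79). Smoc1 was lower in both (-0.55 and -0.70) and Col4a3 with vehicle (-0.86).
Of 24 adhesion plaque genes, which link integrins to actin, 13 were higher and 3 lower with vehicle, and 15 and 5 with D + Q. Actn1, the non-muscle α-actinin, had 2.46 and 2.33, Parva 1.69 and 1.67, and Tns3 1.60 and 1.62. Tln2, Fermt2 and Tns1 were lower in both treatments (log2 fold changes between -0.51 and -0.39), and Lims2 (-0.42) and Ptk2 (-0.15) with D + Q. The dystroglycan complex, the other laminin receptor of the fibre, had more genes lower than higher on the TMM scale: of 20 genes, 5 were higher and 11 lower with vehicle, and 4 and 11 with D + Q. With total counts as the scale this turned, to 9 higher and 1 lower with vehicle and 11 and 3 with D + Q, so the direction of this list depends on the scale. On that scale the adhesion plaque genes went to 21 higher and 0 lower and to 19 and 1, and no ligand or basement membrane partner was called lower in either treatment. With TMM, Sntb2, a syntrophin of that complex, had 1.63 and 1.78. The other genes of that complex called higher were Utrn, Sgce and Cav3 in both treatments and Pomt2 with vehicle. Those named beyond the 3 with the smallest p in each list were chosen after their values were seen.

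The next question was whether D + Q altered these genes in overloaded muscle. None of the 35 members tested, and none of all 15238 genes (0%), passed an adjusted p of 0.05 in edgeR, and DESeq2 called 11 genes, of which 1 was a member, Itgbl1. The study itself, with DESeq2 in Partek Flow and its own count filter, reported many more genes for these groups at the same threshold. The reason for that difference was not tested. At an unadjusted p under 0.05 the members numbered 5 on the higher and 1 on the lower side, against 4.19% and 4.61% of all genes. Without vehicle MOV replicate 4 they numbered 10 in all, and those of all genes went from 1340 to 2634. The median log2 fold change of the members was 0.09. These mice also serve in the comparisons of MOV with sham.
Itgbl1 had the smallest p of the members. Its D + Q MOV mice, at 45.1 to 55.8 CPM, lay wholly above its vehicle MOV mice, at 31.4 to 39.3 CPM, a log2 difference of 0.50 ± 0.08 (95% interval 0.32 to 0.67, adjusted p = 0.352 by edgeR's quasi-likelihood test), or 1.41-fold. Itga2 was the other member whose groups did not overlap, at 1.95 to 2.65 against 1.14 to 1.77 CPM (0.63 ± 0.20, adjusted p = 0.523), where 0.748% of all genes were wholly higher. Itga11 had a log2 difference of 0.59 ± 0.13 (95% interval 0.30 to 0.87, adjusted p = 0.523), with D + Q MOV replicate 2, at 25.9 CPM, inside the vehicle range. Lama4 had 0.35 ± 0.15 (adjusted p = 0.553) and Itga4 0.39 ± 0.18 (adjusted p = 0.563). Itga7 had -0.44 ± 0.16 (adjusted p = 0.523), the 1 member on the lower side, and -0.26 without vehicle MOV replicate 5, and 4 of the 5 vehicle MOV mice lay above every D + Q MOV mouse. Lamb1 had 0.25 ± 0.17 with a 95% interval of -0.12 to 0.63 and a range of 0.16 to 0.39 with 1 mouse left out, the lowest without vehicle MOV replicate 2 and the highest without replicate 4. Itgb1 had -0.10 ± 0.09 with an interval of -0.29 to 0.10.
The 8 fibroblast markers all had positive log2 differences in this comparison, 4 of them at an unadjusted p under 0.05 and none at an adjusted one (median 0.33). So did the 6 tendon and myotendinous junction markers (2 at an unadjusted p under 0.05, median 0.37) and the 5 mast cell markers tested (3, median 0.76). Endothelial markers were positive for 3 of 9. The part of these cells in the values of Itgbl1, Itga11 and other members was not tested.

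**Figure D5:**
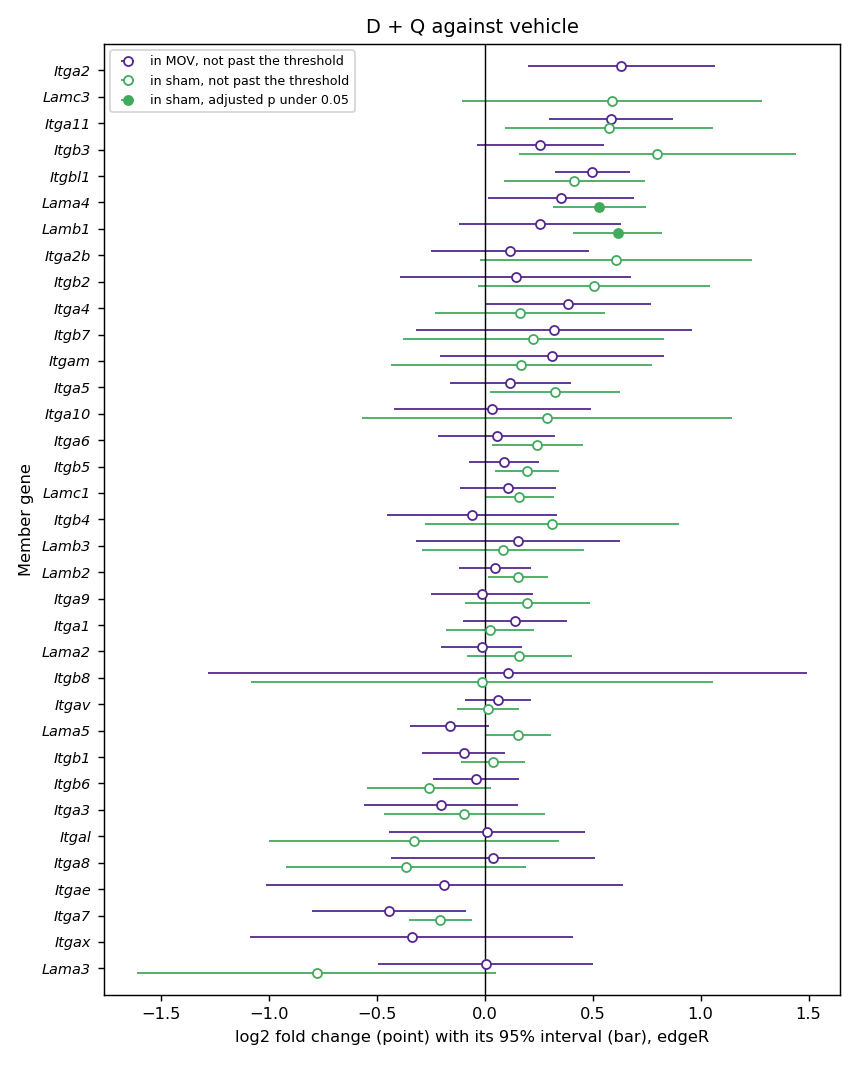
Log2 difference of tested members between D + Q and vehicle mice (horizontal axis, points) with 95% intervals (bars), in MOV in purple and in sham in green, filled where the adjusted p was under 0.05. Only Lamb1 and Lama4 in sham muscle are filled, at 0.61 and 0.53, and no member is filled in MOV.

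In sham muscle 2 of 33 members were higher with D + Q and none lower, against 0.187% and 0.0287% of all 13926 genes. Lamb1 read 21.3, 25.3, 23.8, 19.4 and 22.3 CPM with D + Q and 17.3, 13.8, 12.2, 15.6 and 13.5 CPM with vehicle, with no overlap, as for 1.34% of all genes on the higher side. Its log2 difference was 0.61 ± 0.10 (95% interval 0.41 to 0.82, adjusted p = 0.0177 by edgeR), or 1.53-fold. Lama4 read 18.3, 25.8, 22.6, 19.3 and 22.2 CPM with D + Q and 14.7, 14.4, 12.1, 15.8 and 17.1 CPM with vehicle, also apart, at 0.53 ± 0.10 (95% interval 0.31 to 0.75, adjusted p = 0.0417), or 1.44-fold. Neither call held when all 20 mice entered 1 fit, nor without vehicle sham replicate 2, vehicle sham replicate 3, D + Q sham replicate 3 or D + Q sham replicate 5. That of Lama4 was also lost without vehicle sham replicate 1, vehicle sham replicate 4 or D + Q sham replicate 2, and with a block for the replicate number (adjusted p = 0.0739 by edgeR), where Lamb1 was still called.
Without adjustment, 10 members were at a p under 0.05 on the higher side, against 5.39% of all genes, and 1 on the lower side, against 4.8%. Beside Lamb1 and Lama4 they were Itgb3 (0.80 ± 0.31), Itga11 (0.57 ± 0.22), Itgbl1 (0.41 ± 0.16, adjusted p = 0.37), Itga5 (0.33 ± 0.14), Itga6 (0.24 ± 0.10), Itgb5 (0.19 ± 0.07), Lamb2 (0.15 ± 0.07) and Lama5 (0.15 ± 0.07), with Itga7 (-0.21 ± 0.07) on the lower side. Itgbl1 was at 4.36 to 6.7 CPM with D + Q and 3.34 to 4.95 CPM with vehicle, and its groups overlapped. All 8 fibroblast markers again had positive log2 differences, 6 at an unadjusted p under 0.05 and none at an adjusted one (median 0.48). The 6 tendon and myotendinous junction markers were likewise all positive (4 at an unadjusted p under 0.05, median 0.35), as were the 7 of pericytes and smooth muscle (2, median 0.19) and 8 of 9 endothelial markers (2, median 0.17). The part of these cells in the values of Lamb1, Lama4 and the others was not tested. Among the partner genes, Actn4 (0.41 ± 0.08, adjusted p = 0.0405) of the adhesion plaque and Thbs1 (0.81 ± 0.13, adjusted p = 0.0199) of the ligands were higher, both named after their values were seen. The dystroglycan complex and the basement membrane partners had none, although 9 of 17 tested basement membrane partners had an unadjusted p under 0.05, all on the higher side.

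Whether the difference made by MOV depended on D + Q was tested with an interaction term over all 20 mice. None of 36 members passed an adjusted p of 0.05 by edgeR, limma or DESeq2, where edgeR called 2 of 15700 genes (0.0127%). Lama5 was the 1 member at an unadjusted p under 0.05, against 5.71% of all genes, with -0.32 ± 0.12 (adjusted p = 0.761 by edgeR). It was therefore not shown that the Lama5 decrease was larger with D + Q than with vehicle. The interaction was -0.36 ± 0.22 for Lamb1 (95% interval -0.83 to 0.10), -0.19 ± 0.21 for Lama4 (-0.62 to 0.25), 0.08 ± 0.16 for Itgbl1 (-0.24 to 0.40) and -0.24 ± 0.19 for Itga7 (-0.63 to 0.15), intervals that leave room for changes of either sign. With 1 mouse left out they ranged over -0.48 to -0.22, -0.30 to -0.03, 0.01 to 0.15 and -0.33 to -0.06 in the same order, with Lamb1 and Lama4 nearest 0 without vehicle MOV replicate 4, Itgbl1 without D + Q sham replicate 1 and Itga7 without vehicle MOV replicate 5.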

How the data were processed

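RNA-seq of plantaris muscle was analysed in 20 mice, 5 in each group. The authors aligned reads with STAR 2.7.8a to GRCm39, quantified genes with the expectation-maximization method of Partek Flow and Ensembl annotation, and deposited estimated counts, not normalized, with 1 column per mouse. Whether strand was used in counting is not given in the sources used here. No row sums to under 10 counts. Estimated counts were rounded. The main test was the robust quasi-likelihood test of edgeR 4.0.16 (R 4.3.3) with TMM factors and Benjamini-Hochberg adjustment over all genes tested (threshold 0.05). A gene entered when 5 or more mice of the fit had 10 or more counts. Itga2 entered the MOV comparisons through its MOV mice alone and is left out of the counts and folds there. A comparison of a pair of groups used those 10 mice, and the interaction used 20. Standard errors are the log2 fold change over the root of the F statistic, with 95% intervals from the t distribution of the same fit. Exon lengths, used for levels per kilobase, came from the GENCODE annotation of GRCm39 and promoters from RefSeq GRCm38.p6, matched by symbol (24 of 38 members).

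Total counts were 17887532 to 26234518 per mouse, so precision is low for members under about 10 counts. Within each group every pair of libraries differed by more than sampling noise. Mice are separate animals. Replicate numbers in the labels were tested as a block. Alternatives were DESeq2 1.42.0, RLE factors, total counts, a filter of 10 counts in total, limma-voom (limma 3.58.1) with quality weights, all 20 mice in 1 fit, the replicate block, and each mouse left out. Members, gene lists and markers were chosen with earlier results of these data known. Named in each mouse are Itgbl1, members called in a D + Q comparison and the 12 members with the largest change in either MOV comparison. Other members are given by range. Of each partner list up to 3 genes with the smallest p in either MOV comparison are named. Counts cover all members and list genes, and the values of some of them are not reported here. The test was also run on counts simulated for D + Q against vehicle in MOV. They were drawn from edgeR's own model, so that run cannot test the model.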

Additional observations from a re-analysis of the deposited data

Results flagged for a closer look

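In 9 of 144 sets of 5 mice (36 members in 4 groups) the highest or lowest mouse stood apart from the rest of its group by Dixon's test at the 95% level, and chance flags about 1 in 20 sets. In D + Q MOV mice, Itga11 was low in replicate 2 at 25.9 CPM (the others 34 to 37.3) and Itga6 low in replicate 4 at 24.1 CPM (the others 28.2 to 28.7), while Itgae was high in replicate 1 at 0.782 CPM (the others 0.342 to 0.402). In vehicle MOV mice, replicate 4 was high for Itgb3 at 10.5 CPM (the others 6.22 to 7.3) and for Itgb8 at 3.5 CPM (the others 0.659 to 1.44). In vehicle sham mice, Lamb2 was high in replicate 2 at 164.6 CPM (the others 127.5 to 137.5), Itga2b in replicate 3 at 1.1 CPM (the others 0.582 to 0.706) and Itgal in replicate 5 at 1.18 CPM (the others 0.736 to 0.815). In D + Q sham mice, Itgax was high in replicate 2 at 1.34 CPM (the others 0.243 to 0.472). Vehicle MOV replicate 4 and D + Q sham replicate 2 also had the highest macrophage marker sums of their groups, at 828.5 and 155 CPM. Both mice had the highest fibroblast marker sums of their groups as well, at 6862 and 861 CPM.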

How the results depend on the processing

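Counting Itga2, the members called between MOV and sham numbered 29 with vehicle (27 to 30 with 1 mouse left out, 28 to 31 under the other alternatives) and 32 with D + Q (31 to 33 and 30 to 33), and the interaction had 0 under all alternatives run, with 1 to 3 members at an unadjusted p under 0.05. With total counts as the scale, Itgb5 reversed to 0.18 with vehicle and 0.088 with D + Q, and Lama5 to 0.001 (0.000951) with vehicle, and the members called lower went from 2 to 0 and from 3 to 1. Of 1497 single-gene values under alternatives, for 86 results, 1457 kept their direction and side of the threshold, 34 lost the threshold, 3 gained it and 3 reversed. In D + Q against vehicle in MOV, DESeq2 called 1 member where edgeR called 0, and 0 with each mouse left out; without vehicle MOV replicate 4, 2634 of all genes had an unadjusted p under 0.05 in place of 1340. In D + Q against vehicle in sham, 2 members were called, 0 with all 20 mice in 1 fit, and 0 to 2 with 1 mouse left out: 0 without vehicle sham replicate 2 or 3 or D + Q sham replicate 3 or 5, and 1 without vehicle sham replicate 1 or 4 or D + Q sham replicate 2. The cause was not tested. All genes called in that comparison numbered 30, with 133 by DESeq2, 49 with total counts, 47 with a filter on total counts, 19 with all 20 mice in 1 fit and 2 to 74 with 1 mouse left out. In MOV, DESeq2 called 11 of all genes where edgeR called 0 (0 to 2 with 1 mouse left out). Members with few counts, such as Itgad, Itgae, Lama1, Lamc3 and Itgb8, are limited by depth.

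With a block for the replicate number, the calls were 29, 31, 0, 1 and 0 members in MOV against sham with vehicle, the same with D + Q, D + Q against vehicle in MOV, in sham, and the interaction. In sham the call of Lama4 was lost, at a log2 difference of 0.53, and of all genes 19 were called in place of 30, in MOV 2 in place of 0, and in the interaction 1 in place of 2. The deviations of same-numbered mice from their group means correlated at -0.146 to 0.189. Column labels number sham and MOV mice from different starts, so between surgeries the block joined mice of unlike column numbers. Whether same-numbered mice shared a batch is not given in the labels.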
